A study of Mus musculus with 6 samples.

Results

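PB3 mouse mammary tumour cells were compared after a second and after a first round of paclitaxel. The 848 PAC2 cells and 2928 PAC1 cells, 3776 of 51785 cells in the series, were taken by the condition name in the deposited cell table, and all of them were used. PAC1 cells had been given 100 nM paclitaxel for 72 h and then left to recover for a time the labels do not state. PAC2 cells had the same 100 nM exposure, 48 h of recovery and then 250 nM paclitaxel, after which no recovery is named. The number of rounds, the dose and the time since the drug therefore differ together between PAC1 and PAC2 and cannot be told apart. PAC3 cells, from the same library, had a further 250 nM round and a recovery of unstated length, and are given below as a further level. All cells came from 1 tumour line, carried lentiviral lineage barcodes, and were grown as 1 culture per condition as far as the labels say.

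Paclitaxel binds microtubules and keeps them from shortening, so that the mitotic spindle fails and dividing cells arrest, die or leave mitosis with abnormal chromosome content. A lineage barcode is a synthetic sequence that integrates into a cell's genome and is inherited by its daughters, so cells with the same barcode descend from 1 founder cell unless founders received the same sequence. Pseudotime is a distance along a path fitted through cells by similarity of expression, counted here from untreated cells, and it is not clock time.

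The series has 6 libraries, and the 3 paclitaxel conditions were captured together in 1 of them, after labelling with hashtag oligos that mark the culture of origin. The hashtags were the following, shown because the PAC1 and PAC2 names rest on them.
PAC1: GCACACGC
PAC2: AGAGAGAG
PAC3: TCACAGCA
The PAC1 and PAC2 hashtags differ in 6 of their 8 bases. All 3 hashtags were detected in every one of the 3776 cells, and the table holds only their summed count per cell (median 452 in PAC1 and 478 in PAC2), so the assignment of a cell to PAC1 or PAC2 was taken as deposited. PAC1 and PAC2 shared no cell barcode, but each cell barcode of a library has 1 condition name, so this says nothing about the assignment. The paclitaxel library shared 16 cell barcodes with the eribulin library of the same run. With 1 library and 1 culture per condition no test was made. Intervals in parentheses cover 95% counting error over cells only, not the spread between cultures.

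The lineage barcodes have 48 bases: a first part of 14, a fixed linker of 4 and a second part of 30. Those below showed the 3 largest gains and the 3 largest losses in share of cells between PAC1 and PAC2, in that order, among barcodes with at least 10 called cells over both. The capitals mark the variable parts that identify a lineage, and the linker is in lower case.
bc14-76-bc30-49517: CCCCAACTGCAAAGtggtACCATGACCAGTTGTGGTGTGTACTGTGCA
bc14-4-bc30-67693: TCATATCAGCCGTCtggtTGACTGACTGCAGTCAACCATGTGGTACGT
bc14-71-bc30-60126: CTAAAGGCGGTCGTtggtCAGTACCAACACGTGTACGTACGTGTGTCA
bc14-6-bc30-93034: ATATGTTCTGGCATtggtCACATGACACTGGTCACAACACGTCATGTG
bc14-21-bc30-67560: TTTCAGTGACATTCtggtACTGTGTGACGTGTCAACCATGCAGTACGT
bc14-38-bc30-7217: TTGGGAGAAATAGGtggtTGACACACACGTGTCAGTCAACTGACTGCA
Any pair of these 6 sequences differed in at least 21 bases, and any pair among all 156 barcodes called in PAC1 or PAC2 in at least 10. All 156 are in the deposited list of possible barcodes, but 78 of them are not in the shorter list deposited for this run. Of the 6 printed above, the gains bc14-4-bc30-67693 and bc14-71-bc30-60126 are outside the shorter list. The gain bc14-76-bc30-49517 and all 3 losses are in it. Which list this library was counted with is not known here. Barcodes outside the shorter list made up 29.6% of the called PAC1 cells and 40.8% of the called PAC2 cells.

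Between the first and the second round, cells were found in other clusters of the deposited clustering, which has 14 clusters over all libraries. Cluster 6, the largest of PAC1, held 1215 PAC1 and 27 PAC2 cells, a difference of -38.3 percentage points (-40.4 to -36.1). Cluster 7 held 160 PAC1 and 334 PAC2 cells, a difference of 33.9 points (30.6 to 37.3), and cluster 9 held 662 and 336 cells, a difference of 17.0 points (13.4 to 20.7). Each of these 3 differences is larger than the whole width of its counting interval. The clusters are known here only by number and by which conditions fill them. Cluster 6 also held 14.4% of untreated cells of another run, whereas cluster 7 held 0.0452% and cluster 9 held 1.24% of them.

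**Figure D1:**
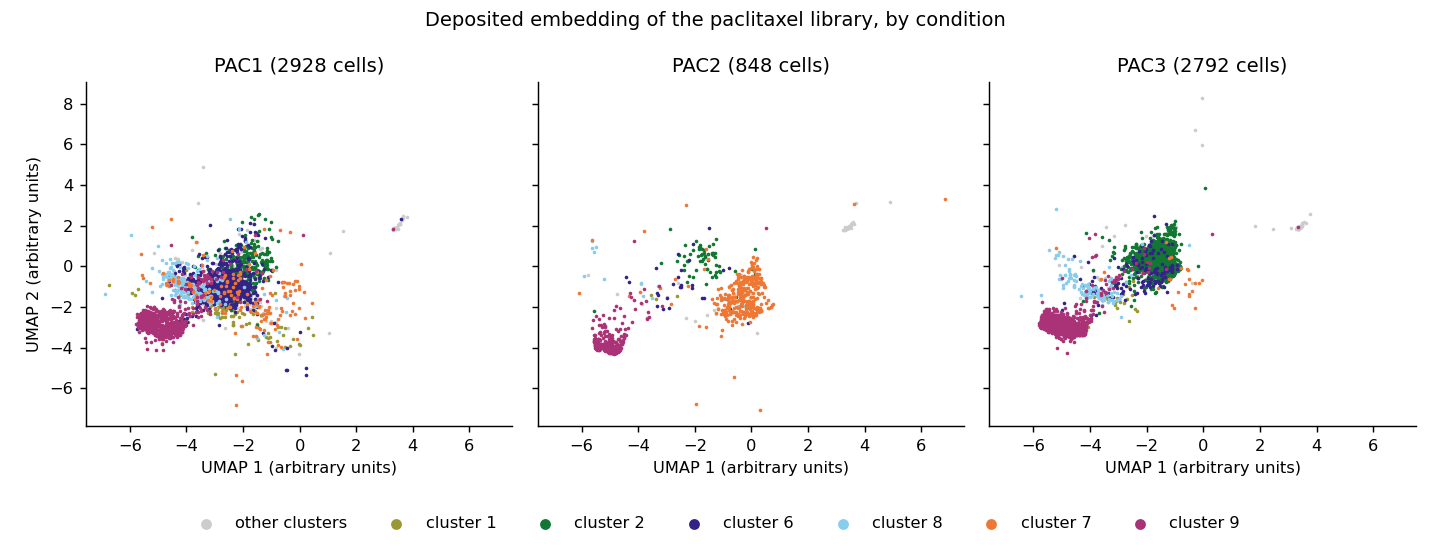
Each point is 1 cell in the authors' embedding (UMAP 1 and UMAP 2, arbitrary units), in 1 panel each for PAC1, PAC2 and PAC3, coloured by deposited cluster. In PAC2 most cells form an orange group (cluster 7) on the right and a purple group (cluster 9) at the lower left that sits lower than the purple group of PAC1 and PAC3.

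The smaller clusters mostly held less of PAC2. Cluster 1, where 49.3% of the untreated cells lay, held 7.27% of PAC1 and 0.590% of PAC2, a difference of -6.68 points (-7.74 to -5.50). Cluster 5, with 30.1% of the untreated cells, held 2.22% of PAC1 and 1 PAC2 cell. Cluster 8 held 6.93% of PAC1 and 2.00% of PAC2, and cluster 2 held 9.22% and 7.67%, a difference whose interval includes 0 (-3.50 to 0.667). Clusters 0 and 4 each held 1.37% or less of either condition, and their differences had intervals that include 0. Cluster 11 held 0.546% of PAC1 and 1.89% of PAC2. Cluster 13, with a median mitochondrial share of 71.9% in PAC1 and 77.6% in PAC2 and medians of 833 and 773 UMIs (counted RNA molecules) per cell, held 1.06% of PAC1 and 4.48% of PAC2. Of the PAC2 cells, 33 had over 50% mitochondrial UMIs, the limit of the stated filter, and without the cells past that limit cluster 13 differed by only 0.201 points.

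**Figure D2:**
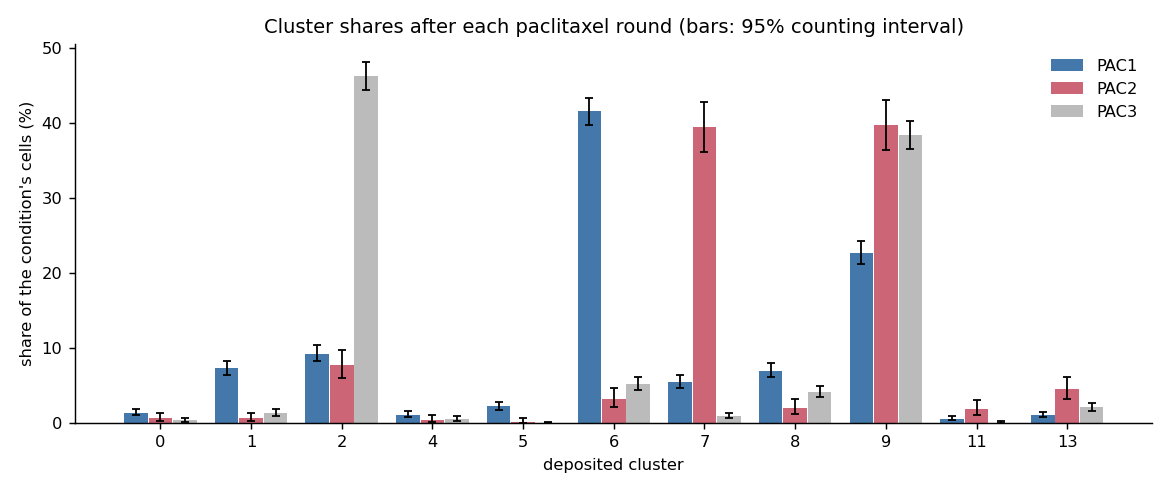
Bars give the share of each condition's cells (%) in each deposited cluster with at least 1% of PAC1 or PAC2, with 95% exact counting intervals. Cluster 6 is the tallest bar of PAC1 and clusters 7 and 9 are the tallest of PAC2, while PAC3 has clusters 2 and 9.

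The cluster mix of PAC2 differed from that of PAC1 and from that of PAC3. The summed overlap of cluster shares was 44.3% between PAC1 and PAC2, 55.4% between PAC2 and PAC3, and 45.9% between PAC1 and PAC3. Cluster 7, which separates PAC2 from both, held 0.931% of PAC3, and cluster 2, which held 46.2% of PAC3, held 7.67% of PAC2. In the eribulin library of the same run, where each round was 500 nM for 72 h followed by 48 h of recovery, cluster 7 held 90.7% of cells after 1 round (ERI1) and 87.7% after 2 rounds (ERI2). The overlap of PAC2 with ERI1 was 47.3% and with ERI2 50.7%, and that of PAC1 with ERI1 was 12%.

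Within clusters 7 and 9, PAC2 cells also lay in another place than PAC1 cells. In cluster 7 the median on the first UMAP axis was -1.99 in PAC1 and -0.24 in PAC2, with middle ranges (25th to 75th percentile) of -2.80 to -1.05 and -0.67 to 0.08. It was -0.95 in PAC3, -0.19 in ERI1 and -0.07 in ERI2, so the PAC2 cells of cluster 7 lay near the eribulin cells on this axis. On the second axis the medians were -1.29 in PAC1, -1.53 in PAC2, -1.95 in ERI1 and -1.36 in ERI2, and there PAC1 lay nearer to ERI2 than PAC2 did. In cluster 9 the median on the second axis was -3.93 for PAC2, against -2.83 for PAC1 and -2.85 for PAC3, with middle ranges of -4.09 to -3.69, -3.11 to -2.40 and -3.08 to -2.60. The PAC2 middle range of cluster 9 thus did not meet that of PAC1 or PAC3 on the second axis. The few eribulin cells of cluster 9 lay with those of PAC2 on that axis, at medians of -3.98 over 9 ERI1 cells and -4.03 over 22 ERI2 cells. On the first axis the cluster 9 medians were -4.83 in PAC1, -5.04 in PAC2 and -5.02 in PAC3, so PAC2 was not set apart from PAC3 there. Distances in a UMAP are not on a measured scale, and no gene values were analysed here that could say which genes set these positions.

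The pseudotime of PAC2 had 2 peaks where that of PAC1 had a broad range. The median was 17.7 in PAC1 and 19.6 in PAC2, a difference of 1.92 (0.712 to 1.95), but 36.3% (33.1 to 39.7) of PAC2 lay from 12 to 15 and 36.0% (32.7 to 39.3) from 23 to 25. In PAC1 these ranges held 13.97% (12.7 to 15.3) and 3.62% (2.97 to 4.36), and in PAC3 2.58% and 7.70%. The quartiles were 14.9 and 20.6 in PAC1 and 13.9 and 23.9 in PAC2. The PAC2 median lies at 19.596, a value shared by 43 PAC2 cells that include all 38 PAC2 cells of cluster 13. The median difference was 0.719 (0.0327 to 2.78) without cluster 13, 0.716 within the stated filter and 0.402 among cells called G1.

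**Figure D3:**
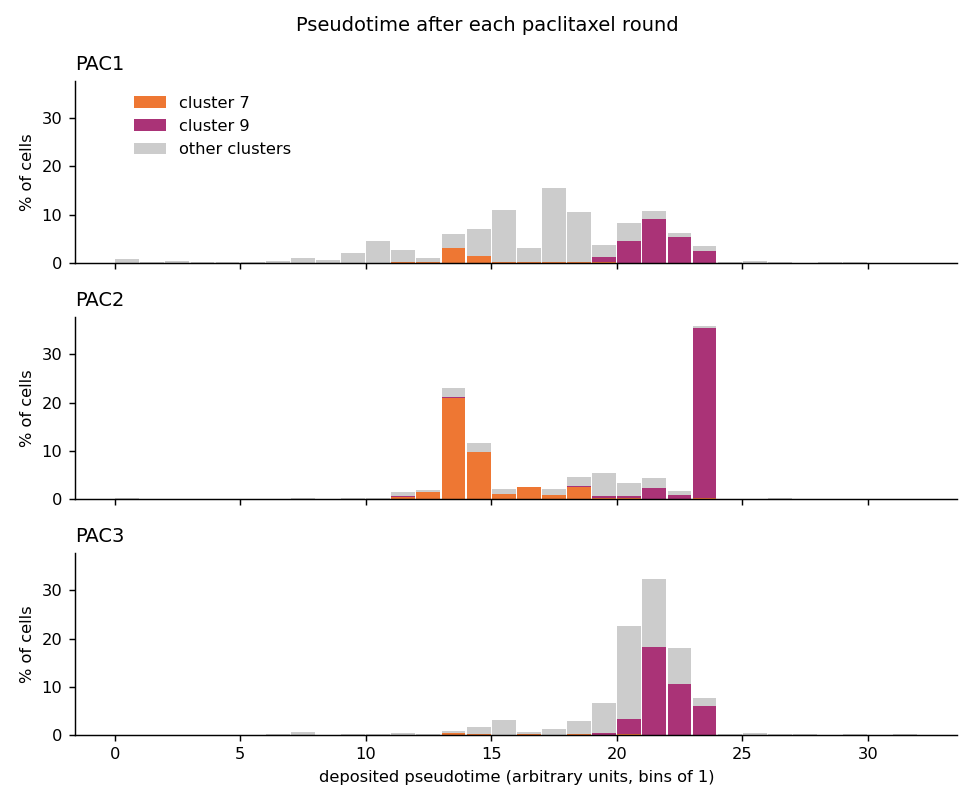
Stacked bars give the share of cells (%) in bins of 1 unit of deposited pseudotime (arbitrary units), for PAC1, PAC2 and PAC3, split into cluster 7, cluster 9 and other clusters. PAC2 has a cluster 7 peak near 13 to 15 and a cluster 9 peak in the bin from 23 to 24, where PAC1 and PAC3 have few cells.

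The upper peak was a single value. To 3 decimals, 295 PAC2 cells shared the pseudotime 23.881, against 47 PAC1 and 55 PAC3 cells. Within cluster 9 that was 86.6% (82.5 to 90.1) of PAC2 cells, 6.80% (5.00 to 8.99) of PAC1 cells and 5.05% (3.81 to 6.53) of PAC3 cells, and the difference between PAC2 and PAC1 was 79.8 points (75.2 to 83.5). Among the eribulin cells of cluster 9 it was 7 of 9 in ERI1 and 20 of 22 in ERI2. The next most shared value of PAC2 was 13.593, with 59 cells, and the most shared value of PAC1 was 18.286, with 84 cells. Cells of cluster 9 at 23.881 had median second UMAP coordinates of -3.22 in PAC1, -3.97 in PAC2 and -3.14 in PAC3, so that the same pseudotime covered different places. The fitted path was not analysed here, so it is not known whether 23.881 is a fixed point of it to which cells at different distances are assigned. Differences in pseudotime between cells at this value and others are therefore given as deposited. In cluster 7 the median pseudotime was 13.8 in both PAC1 and PAC2, a difference of 0.00986 (-0.143 to 0.167), and in cluster 2 both medians were 20.9.

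PAC2 cells gave more UMIs than PAC1 cells, and the gap depended on the cluster. A PAC1 cell had a median of 11674 UMIs and a PAC2 cell one of 16775, with PAC3 at 12776, and the PAC2 cell was higher in 65.6% of all pairs of 1 PAC1 and 1 PAC2 cell. In cluster 7 the medians were 10929 and 21086, a ratio of 1.93, and in cluster 9 they were 11012 and 15229, a ratio of 1.38. In cluster 2 they were 13169 and 11969, a difference of -1200 (-2550 to 675), and in cluster 6 12071 and 12182, a difference of 111 (-3911 to 12177), so neither interval excludes 0. The median number of genes per cell was 3158 in PAC1 and 3976 in PAC2. Cells above 40000 UMIs were 2.19% (1.69 to 2.78) of PAC1 and 7.55% (5.86 to 9.54) of PAC2, with 34 of the 64 such PAC2 cells in cluster 7. The part of cells captured together in these counts was not tested, and the shares of cells with several barcodes are given below. Among cells within 8015 to 25075 UMIs, the range common to both conditions, the cluster 7 difference was 32.3 points and the cluster 9 difference 26.1 points.

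The median mitochondrial share differed little between the conditions. Its median was 2.88% in both, a difference of -0.00117 points (-0.0912 to 0.112). Between clusters it varied more than between conditions: it was 3.32% in PAC1 and 3.33% in PAC2 in cluster 7, and 2.56% and 2.55% in cluster 9. Shares above 10% were found in 1.40% of PAC1 and 4.83% of PAC2 cells.

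Over all cells, the median cell cycle scores differed little. The table gives S and G2M scores, which sum the expression of genes active in DNA replication and in G2 and mitosis, on an arbitrary scale. The median S score was -0.123 in PAC1 and -0.148 in PAC2, a difference of -0.0252 (-0.0443 to -0.00763). The median G2M score was -0.0708 and -0.0484, a difference of 0.0224 (-0.0168 to 0.0577). Cells called S made up 23.7% of PAC1 and 19.0% of PAC2, a difference of -4.72 points (-7.67 to -1.56), and cells called G2M 39.1% and 41.4%, a difference of 2.32 points (-1.40 to 6.10).

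G2M calls were also compared by cluster. They made up 27.5% of PAC1 and 38.0% of PAC2 cells in cluster 7, a difference of 10.5 points (1.58 to 18.8), and 39.6% and 46.7% in cluster 9, a difference of 7.15 points (0.669 to 13.6). In cluster 6, with 27 PAC2 cells, the difference was 13.5 points (-4.96 to 30.6), and in cluster 2 it was 3.02 points (-9.63 to 16.4). In cluster 13 it was -12.99 points (-34.0 to 9.17). The S calls had difference intervals that include 0 in clusters 2, 6, 7, 9 and 13. Of the median scores in these clusters, the S score in cluster 7 differed by -0.0697 (-0.109 to -0.0173). The G2M score in cluster 9 differed by 0.0890 (0.0262 to 0.166). All other score differences in these clusters had intervals that include 0. Between 8015 and 25075 UMIs the G2M difference over all cells was -1.97 points, against 2.32 without that limit. Without cells with 2 or more detected barcodes the S difference was -7.12 points. Phase calls from such scores can also depend on depth and on free RNA, and free RNA was not measured here. The calls are not read as rates of division.

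Lineages were read from the latest deposited barcode call, in which 1792 PAC1 cells (61.2%) and 569 PAC2 cells (67.1%) had 1 called barcode. Shares below are of these called cells, and the numbers of cells in the cultures are not known, so a higher share can go with fewer cells. The barcode bc14-76-bc30-49517 was called in 164 PAC1 and 125 PAC2 cells, and its share was higher in PAC2 by 12.8 points (9.31 to 16.6). The barcode bc14-4-bc30-67693 was called in 52 and 41 cells, a difference of 4.304 points (2.25 to 6.82). Both had a still higher share in PAC3, in 1118 and 487 of 2286 called cells.

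The barcode bc14-71-bc30-60126 had its highest share of the 3 conditions in PAC2. It was called in 7 PAC1 cells, 0.391% (0.157 to 0.803), in 18 PAC2 cells, 3.16% (1.88 to 4.95), and in 1 PAC3 cell, 0.0437% (0.00111 to 0.243). This barcode was chosen for its large gain and reached 10 called cells only with its PAC2 cells. The gap between its PAC1 and PAC2 shares is favoured by that choice and is a description only. Shares were also highest in PAC2 and lowest in PAC3 for bc14-18-bc30-67263, called in 71 PAC1, 37 PAC2 and 3 PAC3 cells. Its difference between PAC2 and PAC1 was 2.54 points (0.523 to 5.01). The barcode bc14-29-bc30-33048 made up 1.73% of PAC1, 3.69% of PAC2 and 1.09% of PAC3, and bc14-33-bc30-33994 1.84%, 3.69% and 2.36%.

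The largest difference downwards was that of bc14-6-bc30-93034, the most frequent barcode of PAC1. It was called in 259 PAC1 cells, 14.5% (12.9 to 16.2), 39 PAC2 cells, 6.85% (4.92 to 9.25), and 165 PAC3 cells, 7.22% (6.19 to 8.36). Its PAC2 and PAC3 intervals overlap and both lie below that of PAC1. The barcode bc14-21-bc30-67560 was called in 38 PAC1 cells, 1 PAC2 cell and 0 of 2286 called PAC3 cells, where 3 cells would be a share of 0.131%. The barcode bc14-38-bc30-7217 was called in 44, 4 and 6 cells. For 3 further frequent barcodes of PAC1, bc14-36-bc30-56638, bc14-65-bc30-62538 and bc14-18-bc30-28871, the difference between PAC2 and PAC1 was -0.729, -1.14 and -1.26 points, with intervals that include 0. These barcodes were ranked on their shares, so their differences are a description.

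**Figure D4:**
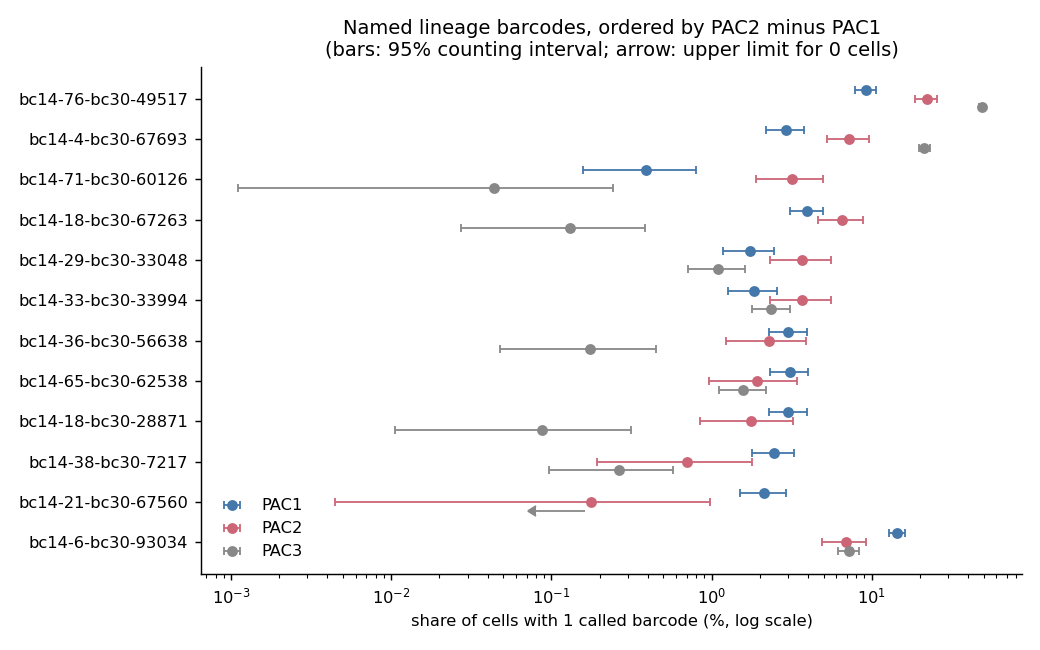
Points give the share of cells with 1 called barcode (%, log axis) for the 12 named lineage barcodes in PAC1, PAC2 and PAC3, with 95% exact counting intervals and an arrow at the upper limit for 0 cells. The upper 6 barcodes have a higher share in PAC2 than in PAC1 and the lower 6 a lower one, while PAC3 lies on either side of PAC2.

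Most barcodes of PAC2 were already seen in PAC1. The 72 barcodes called in both are 51.1% of the 141 barcodes of PAC1 and 82.8% of the 87 of PAC2, and they held 81.5% of called PAC1 and 96.0% of called PAC2 cells. The 69 barcodes found in PAC1 but not PAC2 had at most 20 PAC1 cells each. The largest of them, bc14-12-bc30-75171, was called in 0 of 569 PAC2 cells, where 3 cells would be a share of 0.527%, against 1.12% (0.683 to 1.72) in PAC1. The 15 barcodes found in PAC2 but not PAC1 had at most 4 cells each and held 23 cells in all. Among the 48 barcodes with at least 2 cells in both, 31 had a higher share in PAC2 and 17 a lower one. However, 2 cells are 0.112% of called PAC1 and 0.351% of called PAC2 cells. Rare barcodes therefore pass this filter mainly where their PAC2 share is the higher one, and no trend is read from the count. Of all 109 barcodes with fewer than 10 PAC1 cells, 42 had a higher share in PAC2 and 67 a lower one. Only 53 of these 109 were seen in PAC2, and a barcode not seen there counts as lower. With 569 called PAC2 cells against 1792 called PAC1 cells, rare barcodes are more easily missed in PAC2. No trend is read from this count either.

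PAC2 held fewer different called barcodes than PAC1 at the same number of cells. Some cells had 2 or more detected barcodes, so each barcode need not stand for a separate lineage, which was not tested. The effective number of barcodes (the number of equally frequent barcodes that would give the same chance that 2 cells match) was 24.8 for PAC1 cells, 13.9 for PAC2 cells and 3.41 for PAC3 cells. The 10 most frequent barcodes held 46.2% of called PAC1, 61.0% of called PAC2 and 91.6% of called PAC3 cells. In 569 cells PAC1 held 108 barcodes on average (SD over draws 3.82), against the 87 of PAC2. By the original barcode call, which named fewer cells, the difference was -13.3 barcodes in place of -21.3.

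The gains of clusters 7 and 9 were made up differently by lineage. Among called cells, cluster 7 was higher in PAC2 by 32.5 points. Of these, 32.4 points lay within barcodes seen in both conditions, whose cells were more often in cluster 7, and -1.74 points came from their differing shares. Cluster 9 was higher by 17.1 points, of which -0.691 points lay within shared barcodes and 18.8 points came from the differing shares of those barcodes. The -32.6 points of cluster 6 divided into -19.2 within shared barcodes, -3.96 from their shares and -9.49 from barcodes seen in 1 condition only. In cluster 2, -3.72 points within barcodes stood against 4.99 points from shares. In the common range of UMIs the within-barcode parts were 29.4 points for cluster 7 and -0.216 points for cluster 9.

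The barcodes with at least 10 called PAC1 cells were then grouped by the cluster that held most of their PAC1 cells, a grouping made after the values had been seen. The PAC1 make-up of each group is fixed by that choice, while its PAC2 and PAC3 make-up is not. The 12 barcodes led by cluster 9 were mostly found there in all 3 conditions: cluster 9 held 92.8% (89.6 to 95.3) of their PAC1 cells, 90.4% (85.1 to 94.3) of their PAC2 cells and 96.7% (95.2 to 97.9) of their PAC3 cells. Their share of all called cells was 19.4% (17.6 to 21.3) in PAC1, 31.3% (27.5 to 35.3) in PAC2 and 33.2% (31.2 to 35.1) in PAC3. Among these 12 barcodes, 9 had a higher share in PAC2 than in PAC1 and 3 a lower one. The counts for the other barcodes are given below.

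The barcodes led by cluster 6 were mostly in cluster 7 after the second round. For these 24 barcodes, cluster 6 held 71.0% of 458 PAC1 cells, and cluster 7 held 80.0% (67.7 to 89.2) of 60 PAC2 cells. Their share of called cells was 25.6% (23.6 to 27.6) in PAC1, 10.5% (8.14 to 13.4) in PAC2 and 2.36% (1.78 to 3.07) in PAC3. Of the 24, 22 had a lower share in PAC2, where only 15 were seen at all. Lower shares were also found for 5 of 6 barcodes led by cluster 1, 2 of 3 led by cluster 2 and 2 of 2 led by cluster 8. It was 67 of the 109 barcodes with fewer than 10 PAC1 cells, but only 53 of these 109 were seen in PAC2, and those not seen count as lower. Choosing barcodes by at least 10 PAC1 cells itself favours lower shares in PAC2. For the barcodes led by cluster 6, the PAC3 cells were also placed. Of their 54 PAC3 cells, 42.6% (29.2 to 56.8) were in cluster 6 and 7.41% (2.06 to 17.9) in cluster 7. The 6 barcodes led by cluster 1 had 108 PAC1 and 18 PAC2 cells, with 72.2% (46.5 to 90.3) of the latter in cluster 7.

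The groups led by clusters 8 and 2 are each nearly a single lineage. In the group led by cluster 8, 259 of 313 PAC1 cells carried bc14-6-bc30-93034. Cluster 8 held 44.7% (39.1 to 50.4) of this group in PAC1, 22.4% (11.8 to 36.6) in PAC2 and 59.3% (51.4 to 66.8) in PAC3, and cluster 7 held 59.2% (44.2 to 73.0) in PAC2. In the group led by cluster 2, 164 of 207 PAC1 cells and 125 of 127 PAC2 cells carried bc14-76-bc30-49517. Cluster 2 held 53.1% (46.1 to 60.1) of this group in PAC1, 34.6% (26.4 to 43.6) in PAC2 and 92.6% (90.9 to 94.1) in PAC3. In both groups the leading cluster of PAC1 thus held a smaller share in PAC2 and a larger one in PAC3.

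**Figure D5:**
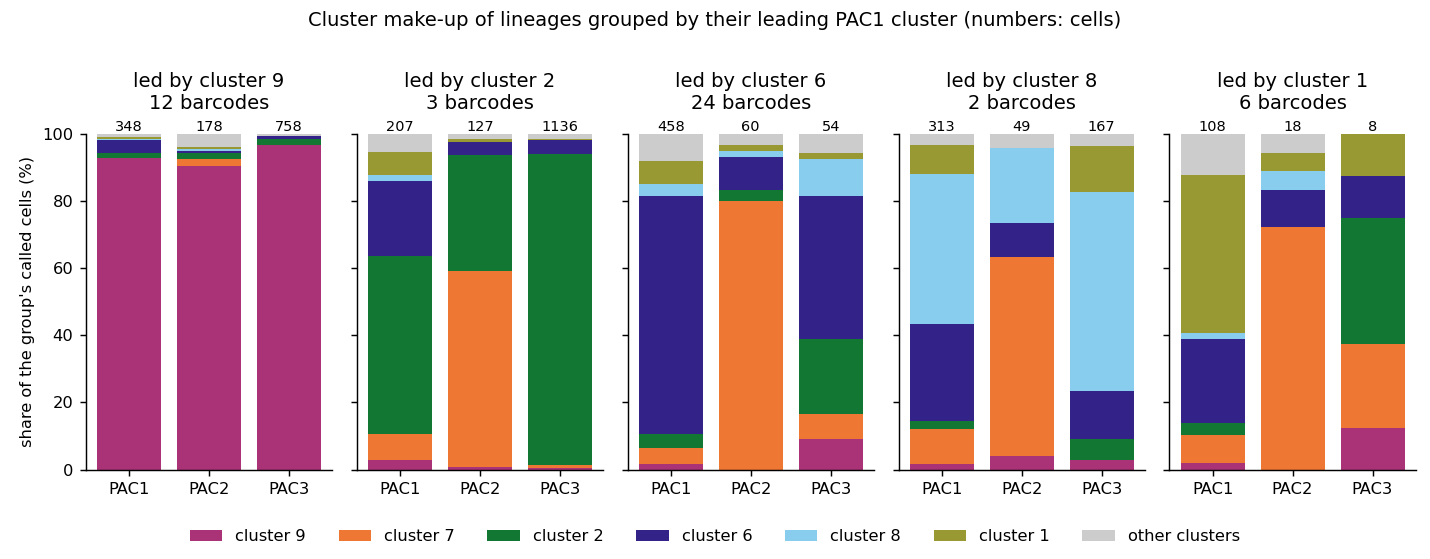
Stacked bars give the share of called cells (%) in each cluster for barcodes with at least 10 PAC1 cells, grouped by their leading PAC1 cluster, in PAC1, PAC2 and PAC3, with the number of cells above each bar. Lineages led by cluster 9 keep cluster 9 in all 3 conditions, and those led by clusters 2, 6, 8 and 1 have cluster 7 as their largest part in PAC2.

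The same contrast was seen barcode by barcode. Of 12 barcodes with at least 10 called cells in both conditions, 7 were led by cluster 9 in PAC1. These had 87.1% to 97.0% of their PAC1 cells and 83.3% to 92.9% of their PAC2 cells in cluster 9, and a median pseudotime of 20.5 to 22.03 in PAC1 and 23.9 in PAC2. Their pseudotime differences ran from 1.85 to 3.39, and all 7 intervals lay above 0. Each of the 7 had the shared value 23.881 as its PAC2 median. The intervals are therefore narrow on the PAC2 side, and the 7 differences lead to the same value and are not separate results. The share of PAC2 cells at 23.881 was 68.3% in bc14-4-bc30-67693, 81.1% in bc14-18-bc30-67263 and 92.9% in bc14-58-bc30-9763, against 3.23% to 10.0% over the 7 barcodes in PAC1. In PAC3 the same 3 barcodes had 3.70% of 487, 0 of 3 and 8.89% of 45 cells at that value.

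The other 5 barcodes were more often in cluster 7 in PAC2, each of them. The barcode bc14-74-bc30-34057 had 0 of 28 PAC1 cells and 16 of 18 PAC2 cells there, and 64.3% of its PAC1 cells in cluster 6. For bc14-36-bc30-56638 the counts in cluster 7 were 5 of 54 and 9 of 13, and for bc14-18-bc30-28871 5 of 54 and 7 of 10. For bc14-6-bc30-93034 they were 28 of 259 and 22 of 39, and for bc14-76-bc30-49517 15 of 164 and 73 of 125. Median pseudotime was lower in PAC2 in 4 of the 5, from -3.83 in bc14-76-bc30-49517 to -0.515 in bc14-6-bc30-93034, and 0.318 higher in bc14-36-bc30-56638. The interval lay below 0 in 2 of them. The pseudotime median over all cells thus held lineages with higher values and lineages with lower values.

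Within the lineage bc14-76-bc30-49517, the gap in depth between the conditions was not the same in every cluster. Its 43 PAC2 cells in cluster 2 had a median of 12339 UMIs, close to the 12503 of its 92 PAC1 cells there. Its 73 PAC2 cells in cluster 7 had a median of 22554 UMIs, against 12749 in 15 PAC1 cells. Its 5 PAC2 cells in cluster 6 had a median of 26204 UMIs, against 12712 in 37 PAC1 cells. The median mitochondrial share was 4.24% in PAC2 and 4.40% in PAC1 in cluster 7, and 2.72% and 3.01% in cluster 2. Of its 1118 PAC3 cells, 11 were in cluster 7 and 1034 in cluster 2. For bc14-6-bc30-93034 the median in cluster 7 was 17747 UMIs over 22 PAC2 cells and 10360 over 28 PAC1 cells.

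The median number of UMIs was higher in PAC2 in 12 of 12 barcodes, by a ratio of 1.08 to 2.01, and the interval of the difference lay above 0 in 7. With at least 5 cells on both sides it was higher in 18 of 20. The mitochondrial share was higher in 8 and lower in 4, the S score higher in 4 and lower in 8, and the G2M score higher in 7 and lower in 5, and each of these intervals included 0. The barcodes share 1 culture and 1 library per condition, so they are not replicates of the drug.

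The 216 called PAC2 cells of cluster 7 carried 56 barcodes, with 33.8% (27.5 to 40.5) in bc14-76-bc30-49517 and 51.4% in the 3 most frequent ones. The effective number of barcodes was 7.26, against 8.45 in cluster 7 of PAC1. The 98 called PAC1 cells of cluster 7 carried 37 barcodes, led by bc14-6-bc30-93034 with 28.6% (19.9 to 38.6). Cluster 9 of PAC2 held 236 called cells with 32 barcodes, of which bc14-4-bc30-67693 had 16.1% (11.7 to 21.4), and its effective number of barcodes was 13.1, against 14.6 in PAC1 and 3.01 in PAC3. Cluster 2 of PAC2 was narrower, with 43 of 52 called cells in bc14-76-bc30-49517.

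Clusters 6, 7 and 9 differed in the same direction among cells without a called barcode. Among the 876 PAC1 and 171 PAC2 cells called Negative, cluster 6 held 53.4% and 2.34%, cluster 7 5.59% (4.17 to 7.33) and 33.3% (26.3 to 40.9), and cluster 9 15.2% (12.9 to 17.7) and 35.7% (28.5 to 43.3). Cluster 2 held 11.8% (9.70 to 14.1) and 5.85% (2.84 to 10.5) of them, against 8.76% (7.49 to 10.2) and 9.14% (6.90 to 11.8) of the cells with 1 called barcode. The PAC1 and PAC2 intervals overlap in both sets of cells, so no contrast in direction is read for cluster 2. The PAC2 cells called Negative also held 33 of the 38 PAC2 cells of cluster 13. Negative calls made up 29.9% of PAC1 and 20.2% of PAC2, while 7.96% and 10.97% were called Doublet, with medians of 18445 and 23106 UMIs. Among the 93 PAC2 cells called Doublet, 53.8% (43.1 to 64.2) were in cluster 7. Cells with 2 or more detected barcodes were 29.7% of PAC1 and 31.25% of PAC2, and in cluster 7 they were 25% and 32.9%. In cluster 9 they were more frequent, at 42.1% of PAC1 and 37.2% of PAC2 cells. Without these cells the differences were 32.6 points in cluster 7 and 17.6 points in cluster 9.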

How the data were processed

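Cells of run 2 were captured with the 10x 3' v3 assay, per the labels' protocols. For this run the submitters' processing notes and design text name Cell Ranger 4.0.0 with mm10 for counting and Seurat 3.1.4 for clustering. They name Monocle3 0.2.1 for the pseudotime, which was fitted over the merged samples from untreated cells as the root. The deposited counts are UMIs, genes, lineage barcodes and hashtags per cell, not normalized. The deposited percent is the mitochondrial share of a cell's UMIs, and the deposited score columns (S, G2M, pseudotime, UMAP) have arbitrary scales. Clusters, hashtag assignment and barcode calls are the authors' own, and the rule behind the calls is not given in the sources used here. The stated filter (at least 200 genes, at most 50% mitochondrial UMIs) was not met by 19 PAC1 and 33 PAC2 cells, which were kept. No doublet caller was run. A gene expression matrix was not analysed here. Thinning of cells was therefore not done, and a common range of UMIs (higher 10th to lower 90th percentile) was used instead.

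A cell was called S or G2M by its higher score, and G1 if neither score was above 0. Shares carry exact Clopper-Pearson 95% intervals, differences of shares Newcombe intervals, and medians order-statistic intervals. A share of 0 stands with the share 3 cells would make. Barcodes at equal numbers of cells come from the exact hypergeometric formula. Cluster differences were split over barcodes with the mean of both conditions as weight. These functions were tested on simulated data. Named were every cluster with at least 1% of PAC1 or PAC2 and the 6 most frequent barcodes of each condition. The 3 largest gains and 3 largest losses in share were also named. The barcodes with at least 10 cells on both sides were described as a set, and not each of them was named. Of that set, bc14-74-bc30-34057 and bc14-58-bc30-9763 were named after their values were seen. So was bc14-12-bc30-75171, which is outside the set. The comparison and its lists were chosen with earlier results of these data known. Python 3.11.15, pandas 2.3.3 and scipy 1.17.1 were used.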

Additional observations from a re-analysis of the deposited data

Results flagged for a closer look

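Between the first and the second round the share of cluster 7 differed by 33.9 percentage points under paclitaxel and by -2.92 points under eribulin, and that of cluster 2 by -1.56 and 2.46 points. The directions are opposite, with 1 library per drug, and the difference between the drugs was not tested. Of 19 quantities set side by side in this way, 7 had opposite signs. These were the 2 above, where both differences were at least 1 point, and 5 smaller ones. Cluster 3 differed by -0.478 and 0.636 points, cluster 11 by 1.34 and -0.953 points, and cluster 12 by -0.102 and 0.0501 points. Median UMIs differed by 5101 and -12, and the median mitochondrial share by -0.00117 and 0.766 points. After 1 round of eribulin cluster 7 already held 90.7% of cells, against 5.46% after 1 round of paclitaxel. The paclitaxel value of cluster 2 has an interval that includes 0.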

How the results depend on the processing

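Of 226 results under other settings, 202 stayed within the interval of the main value, or within 1.5 times it for counts, and 24 did not. The sign changed in 4. G2M calls and the median mitochondrial share, whose main intervals include 0, were -1.97 and 0.0196 points between 8015 and 25075 UMIs, and the mitochondrial share was 0.0499 points without cells with 2 or more detected barcodes. The other was cluster 13, whose difference between PAC2 and PAC1 was -0.0469 points in that range of UMIs and 0.201 points within the stated filter. It was 5.11 points without cells with 2 or more detected barcodes and could not be had without cluster 13.

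In the same range the differences were -8.37 points in cluster 1, -41.9 in cluster 6 and 26.1 in cluster 9, 3.00 in median pseudotime, 2574 in median UMIs, 511 in median genes and 16.2 points in barcodes led by cluster 9. For bc14-38-bc30-7217 the difference was -2.82 points, for bc14-33-bc30-33994 3.49, for bc14-29-bc30-33048 2.95, for bc14-65-bc30-62538 -0.505 and for cluster 2 -0.849. In that range 8 barcodes had at least 10 cells on both sides, and the 3 of them not led by cluster 9 were all more often in cluster 7 in PAC2. Without cells with 2 or more barcodes the differences were -6.40 points in cluster 8, 2.01 in median pseudotime and 85.8 points in cluster 9 cells at 23.881. Median pseudotime differed by 0.402 among G1 cells, 0.719 without cluster 13 and 0.716 within the stated filter. By the original barcode call the differences were -13.3 in barcodes at equal cell number and -11.7 points in barcodes led by cluster 8, and that of bc14-6-bc30-93034 was -10.3 points. With at least 5 cells per barcode, 20 barcodes could be compared, of which 10 led by other clusters than 9 were more often in cluster 7 and 9 had a lower median pseudotime, and 18 of the 20 had higher median UMIs in PAC2. Without the most frequent barcode of PAC2, an alternative chosen after seeing the data, cluster 9 differed by 22.6 points and cluster 2 by -3.40. The cause of these shifts was not tested. Some of the settings hold fewer cells, and the common range of UMIs is narrower.

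No paired analysis was possible because each condition is 1 culture. With 848 PAC2 cells and 569 called ones, a barcode under 0.527% of PAC2 was not reliably seen.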
